A study of Mus musculus with 2 samples.

Results

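Isl1-positive cells, labelled as proximal posterior mesenchyme, were taken from single-cell transcriptomes of mouse hindlimbs. They were chosen by their own UMI counts, where a UMI is 1 counted mRNA molecule. A cell counted as mesenchyme if it had at least 1000 detected genes, at most 10% mitochondrial UMIs, at least 2 UMIs of Prrx1 (a homeobox gene of limb mesenchyme), no UMI of Epcam, Cdh5, Lbx1 or Csf1r (markers of epithelium, endothelium, muscle precursors and macrophages), and under 2% globin UMIs. Mesenchyme cells with at least 2 Isl1 UMIs and at most 1 UMI of Hoxa13 and Hoxd13 together (genes of the hand and foot plate) are called the Isl1 cells here. There were 741 of them among 16136 mesenchyme cells and 29393 barcodes in all. They were 551 of 12386 mesenchyme cells in dual-enSERT-1 (4.45%, 95% Clopper-Pearson interval 4.09% to 4.83%) and 190 of 3750 in dual-enSERT-2 (5.07%, 4.39% to 5.82%).

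The data are 2 libraries, each from the hindlimbs of a transgenic FVB embryo at stage E11.5 (embryonic day, as labelled), made with droplet-based 3' RNA sequencing. Both embryos carried a pair of reporters at the H11 site, in which the ZRS, the limb enhancer of Shh, drove mCherry and its allele ZRS404G>A drove eGFP. The dual-enSERT-1 genotype was H11 ZRS-mCherry/ZRS404G>A-eGFP. The dual-enSERT-2 genotype joined B-ZRS-mCherry, SI and ZRS404G>A-eGFP-B at H11, and the labels do not spell out B and SI. No embryo without reporters was analysed here. Because each genotype had 1 library and the cells were chosen by measured values, no test was run. Intervals are 95% intervals for counting error only, and genotype, embryo and preparation cannot be told apart between the libraries.

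Isl1 encodes a LIM-homeodomain transcription factor that acts in the early hindlimb field upstream of Hand2 and Shh and is needed for hindlimb outgrowth in the mouse. Hand2 is a basic helix-loop-helix factor of the posterior limb bud that activates Shh, and Shh protein from the posterior margin patterns the digits. Meis1 and Meis2 are homeodomain factors of the proximal limb, whereas Hoxa13 and Hoxd13 mark its distal end.

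The promoter windows of Isl1 and Hand2 are shown because Isl1 defines the cells and because the Hand2 window overlaps that of Hand2os1, an antisense RNA gene that was also high in them. Each window is RefSeq sequence of GRCm38.p6, 250 bases before to 50 after the start of the gene, 5′ to 3′ on the strand of the gene. Capitals mark TAAT, the core letters bound by homeodomain proteins, and its reverse complement ATTA; overlapping matches run together. The Isl1 window lies at chr13:116309639-116309938 on the minus strand and the Hand2 window at chr8:57320733-57321032 on the plus strand.
Isl1: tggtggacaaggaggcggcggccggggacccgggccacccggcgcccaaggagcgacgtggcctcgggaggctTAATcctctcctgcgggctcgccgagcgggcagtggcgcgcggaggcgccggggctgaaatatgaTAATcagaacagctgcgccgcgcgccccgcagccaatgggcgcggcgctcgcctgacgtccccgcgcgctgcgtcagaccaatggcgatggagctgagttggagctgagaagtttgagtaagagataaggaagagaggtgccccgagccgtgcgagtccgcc
Hand2: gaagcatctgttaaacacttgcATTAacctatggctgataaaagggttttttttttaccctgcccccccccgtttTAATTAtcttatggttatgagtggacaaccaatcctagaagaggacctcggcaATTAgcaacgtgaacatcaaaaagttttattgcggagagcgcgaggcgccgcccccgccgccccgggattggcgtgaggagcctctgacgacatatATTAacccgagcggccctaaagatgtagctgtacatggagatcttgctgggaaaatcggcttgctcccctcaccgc
The Isl1 window held 2 matches and the Hand2 window 5. At least 1 match was present in 58.0% of all 32851 windows in the RefSeq table, so a match does not set these windows apart. The Hand2os1 window (chromosome 8, 57320810 to 57321109, minus strand) shared 223 bases with the Hand2 window. Of 16 genes looked up, the 5 markers and the 12 leading higher genes with Isl1 in both sets, 12 had a window; Tbx2, Tbx3 and Prr16 were among those with none.

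The Isl1 cells were set beside 3 groups of cells without an Isl1 UMI. The group named in the rule was all mesenchyme cells without Isl1 (10659 cells of dual-enSERT-1, 3097 of dual-enSERT-2). The non-distal cells without Isl1 also met the limit on Hoxa13 and Hoxd13 (6667 and 2522 cells). The posterior cells without Isl1 in addition had at least 2 Hand2 UMIs (2282 and 907 cells), so their Hand2 level was part of the choice. For brevity the last 2 are called non-distal cells and posterior cells. Levels are pooled CPM: a gene's UMIs were summed over a cell group, divided by the group's total and put on the usual CPM scale. A gene is called higher or lower when its log2 fold, computed with 1 CPM added, passed 0.585 (1.5-fold) in the same direction in both libraries and the gene reached 10 CPM in either cell group in both.

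The Isl1 cells had a median of 14252 UMIs (dual-enSERT-1) or 28603 UMIs (dual-enSERT-2), against 13080 and 23853.5 UMIs in the non-distal cells without Isl1. At this difference in depth between the libraries, 2 Isl1 UMIs stand for a higher level in dual-enSERT-1. The same holds for the 2 Hand2 UMIs that chose the posterior cells, whose median was 13926 UMIs in dual-enSERT-1 and 25744 UMIs in dual-enSERT-2. The deposited matrices held 20508 and 8885 barcodes, beside 10000 cells loaded per library per the labels. The libraries shared 49 barcodes, none of them between the Isl1 cells of both. Scrublet, which scores cells against simulated doublets, called 61 of the Isl1 cells doublets in dual-enSERT-1 (11.1%, against 5.32% of the non-distal cells without Isl1) and 1 in dual-enSERT-2 (0.526%, against 0.238%). Called doublets were kept, and values without them are given where they move a result.

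Isl1 itself (GRCm39 chromosome 13, 116434817 to 116446235, minus strand) had 2 to 10 UMIs per Isl1 cell in dual-enSERT-1, with a median of 3, and 2 to 9 UMIs in dual-enSERT-2, with a median of 2. Exactly 2 UMIs, the lowest count allowed, were found in 245 and 111 of the Isl1 cells. Pooled, Isl1 stood at 197 CPM (188 to 206) in dual-enSERT-1 and at 88.8 CPM (81.3 to 96.8) in dual-enSERT-2. These values follow from the rule. Cells with at least 2 Isl1 UMIs that were left out comprised 208 and 83 mesenchyme cells above the limit on Hoxa13 and Hoxd13, and 193 and 39 cells that did not count as mesenchyme.

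The label was checked against Isl1, Hand2, Meis2, Pcp4 and Pcdh8, markers that had been chosen on these data. Per cell, Hand2 had a median of 5 UMIs in the Isl1 cells of dual-enSERT-1 (0 to 35), against 1 UMI in the non-distal cells without Isl1 (0 to 23). In dual-enSERT-2 it had a median of 10 UMIs (0 to 28), against 1 UMI (0 to 24). Pooled Hand2 (GRCm39 chromosome 8, 57774011 to 57777677, plus strand) stood at 370.2 CPM in Isl1 cells against 131 CPM in non-distal cells of dual-enSERT-1, and 322 against 86.4 CPM in those of dual-enSERT-2. Pooled Meis2 stood at 775 CPM in Isl1 cells against 171 CPM in non-distal cells of dual-enSERT-1, and 479 against 177 CPM in those of dual-enSERT-2. Both genes were past the fold in both libraries, Hand2 on the posterior and Meis2 on the proximal side of the label.

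The other 2 markers had more UMIs in dual-enSERT-1 than in dual-enSERT-2, and most Isl1 cells of either library had none. No Pcp4 UMI was found in 71.5% of the Isl1 cells of dual-enSERT-1 and 96.3% of those of dual-enSERT-2. For Pcdh8 these shares were 80.8% and 92.1%. Pcp4, which encodes a calmodulin-binding peptide, had 383 UMIs in the Isl1 cells of dual-enSERT-1 (42.7 CPM, against 3.96 CPM in the non-distal cells without Isl1) but 8 UMIs in those of dual-enSERT-2 (1.39 against 0.169 CPM). Pcdh8, which encodes a protocadherin, had 145 UMIs in dual-enSERT-1 (16.2 against 1.27 CPM) and 22 UMIs in dual-enSERT-2 (3.82 against 0.287 CPM). The ratios of the Isl1 cells to the other cells were 10.8 (9.32 to 12.5) and 8.23 (2.82 to 23.2) for Pcp4, and 12.7 (9.89 to 16.3) and 13.3 (6.75 to 26.7) for Pcdh8. In dual-enSERT-2 neither gene reached 10 CPM, so the label rests there on Hand2 and Meis2, since the rule itself set Isl1.

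Of the 9 marker lists for other cell types, no gene passed the fold in both libraries, but muscle genes stood out in dual-enSERT-1. Few listed genes could pass: 1 endothelial gene, 3 erythroid genes and 1 gene of visceral and body wall mesoderm reached 10 CPM. No gene of the other lists did, and the choice of mesenchyme cells had itself required no UMI of Epcam, Cdh5, Lbx1 or Csf1r. The lack of calls therefore says little about other cells. The 7 muscle genes summed to 25.6 CPM in the Isl1 cells of dual-enSERT-1, against 4.91 CPM in the non-distal cells without Isl1, and to 1.39 against 1.33 CPM in dual-enSERT-2; 2 and 5 of them were at 0 in the Isl1 cells. Pax3, a factor of muscle precursors, gave 129 UMIs in 14 Isl1 cells of dual-enSERT-1 but 1 UMI in those of dual-enSERT-2. The 8 neuron genes, listed because Isl1 also marks motor and sensory neurons, summed to 32.8 CPM in Isl1 cells against 22.8 CPM in non-distal cells of dual-enSERT-1, and 19.8 against 14.3 CPM in those of dual-enSERT-2, with 2 and 4 at 0 in the Isl1 cells. The 8 ectoderm genes summed to 10.3 CPM in Isl1 cells against 24.9 CPM in non-distal cells of dual-enSERT-1, and 6.95 against 11.3 CPM in those of dual-enSERT-2, with 3 and 2 at 0 in the Isl1 cells. For the Isl1 cells against the non-distal cells, first of dual-enSERT-1 and then of dual-enSERT-2, neural crest genes summed to 6.24 against 8.80 CPM and to 5.39 against 4.31 CPM, endothelial genes to 14.3 against 15.7 CPM and to 16.2 against 17.99 CPM, and macrophage genes to 0.669 against 1.48 CPM and to 0.521 against 0.862 CPM. In the same cells smooth muscle genes summed to 3.23 against 2.61 CPM and to 1.56 against 2.03 CPM, and genes of visceral and body wall mesoderm to 96.0 against 135 CPM and to 49.0 against 52.4 CPM. Erythroid genes, mostly globins, were far higher in dual-enSERT-2 in both cell groups, at 2266 CPM in Isl1 cells against 2441 CPM in non-distal cells, than in dual-enSERT-1, at 282 against 301 CPM. Of 8 mesenchyme markers, all reached 10 CPM, with Twist2 higher and Msx1 lower. The part of other cells in the results below was not tested. Values were computed, however, without a subcluster of 84 Isl1 cells of dual-enSERT-1 that was led by Pax3 and is described below. Of its cells 58 were called doublets, and most had no Pax3 UMI.

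Against the non-distal cells without Isl1, 112 of 8775 genes that reached 10 CPM were higher in the Isl1 cells in both libraries (1.28%) and 96 were lower (1.09%). Among the 12 leading higher genes, ranked by the smaller of the 2 log2 folds, were Isl1, Tbx3os1, Tbx3, Tbx2, Prdm1, Nell1, Cntfr, Dkk2, Prr16, Hand2os1 and Kcnq5. Among the 12 leading lower genes were E130114P18Rik, Hpse2, Lhx9, Tcf15, Cntn4, Sall3, Cyp26b1, Ptprt, Map1b and Osr2. These counts describe cells chosen by their own values, and nothing is read from them as a test. Every gene list below was drawn up with results of these data known, and lists are described by their counts and by their median log2 folds for dual-enSERT-1 and then dual-enSERT-2. Over all genes that reached 10 CPM these medians were -0.00 and 0.01 against the non-distal cells and -0.00 and 0.01 against the posterior cells. Isl1 is among the higher genes by the rule alone.

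**Figure D1:**
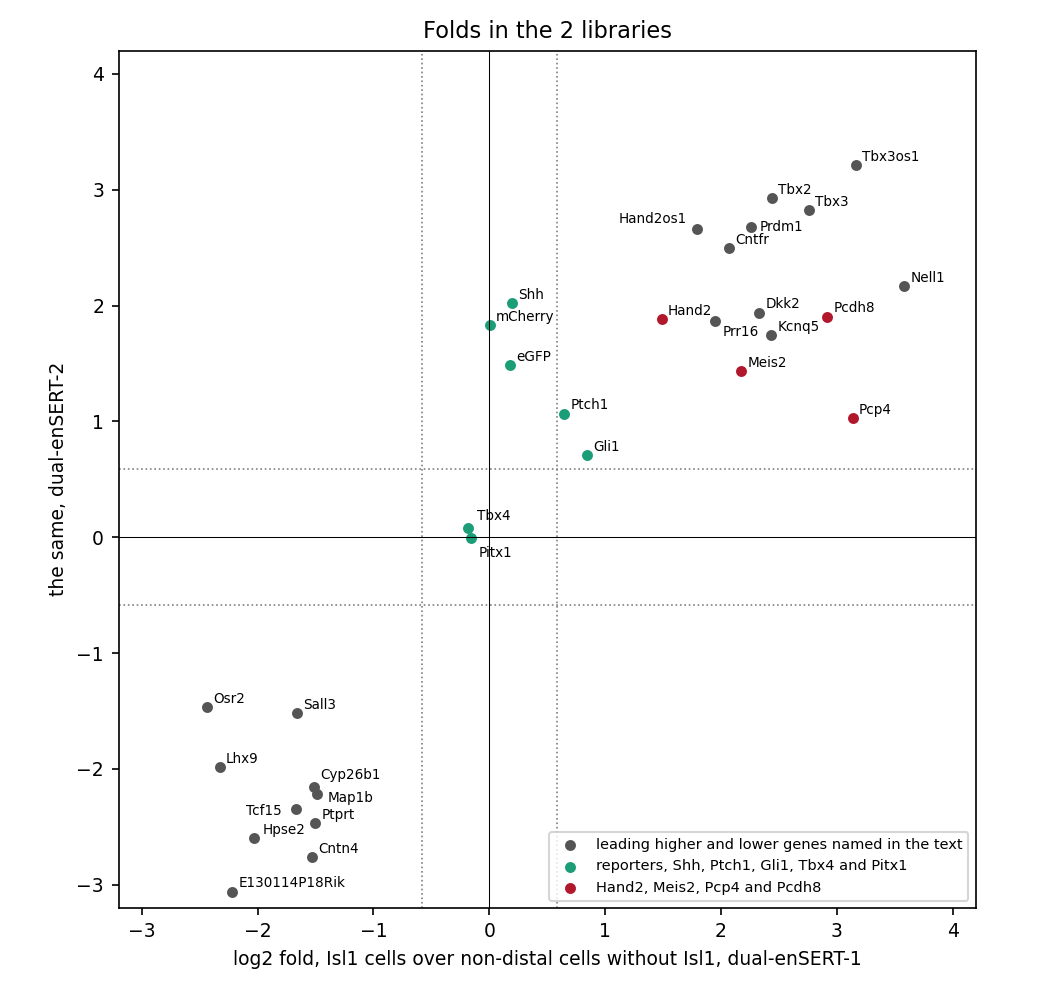
Log2 fold of pooled CPM (1 CPM added) in the Isl1 cells over the non-distal cells without Isl1, in dual-enSERT-1 on the x axis and in dual-enSERT-2 on the y axis; each point is a gene and dotted lines mark the 1.5-fold difference. The leading genes drawn lie in the upper right and lower left, while Shh, eGFP and mCherry lie at 0.20, 0.18 and 0.00 in dual-enSERT-1 and at 2.02, 1.49 and 1.83 in dual-enSERT-2; Isl1 is not drawn, because the other cells have none by choice.

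Posterior transcription factors led the higher genes. Tbx3 (GRCm39 chromosome 5, 119806298 to 119822797, plus strand), a T-box repressor of the limb flanks, stood at 149 CPM (142 to 158) in the Isl1 cells of dual-enSERT-1, against 21.2 CPM (20.3 to 22.2) in the non-distal cells without Isl1. In dual-enSERT-2 it stood at 102 CPM (94.2 to 111), against 13.6 CPM (12.7 to 14.6). The log2 folds of 2.76 and 2.82 lay close together. Tbx2, its close relative, stood at 89.9 CPM in Isl1 cells against 15.8 CPM in non-distal cells of dual-enSERT-1, and 72.1 against 8.60 CPM in those of dual-enSERT-2. Tbx3os1, an RNA gene on the opposite strand that overlaps the start of Tbx3, stood at 163 CPM in Isl1 cells against 17.4 CPM in non-distal cells of dual-enSERT-1, and 66.5 against 6.29 CPM in those of dual-enSERT-2. Hand2os1 stood at 296 CPM in Isl1 cells against 84.6 CPM in non-distal cells of dual-enSERT-1, and 218 against 33.5 CPM in those of dual-enSERT-2. No source used here says whether counting used strand, and without it reads of Tbx3 and Tbx3os1, or of Hand2 and Hand2os1, cannot be told apart.

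When each cell was thinned to 10000 UMIs, Tbx3 was seen in 70.2% of the Isl1 cells of dual-enSERT-1 (65.7% to 74.3%), against 13.2% of the non-distal cells without Isl1. In dual-enSERT-2 the shares were 56.1% (48.7% to 63.4%) and 10.2%. Thinning used 459 and 187 Isl1 cells and left out 92 and 3 shallower ones; without it the shares of the Isl1 cells were 78.6% and 81.1%. Endothelial cells (at least 2 Cdh5 UMIs and no Prrx1 UMI, median 17054 and 21124 UMIs) served as a measure of free RNA. Because Prrx1 is itself a mesenchyme RNA, asking for none may leave out cells with more free RNA and set this measure low. Tbx3 was seen in 1.06% of 94 and 12.1% of 33 of these endothelial cells after thinning. The Isl1 cells stood above these shares in both libraries, whereas the share of the non-distal cells without Isl1 in dual-enSERT-2 was no higher than the endothelial one.

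Of the 11 genes of the posterior list, 10 reached 10 CPM, 7 were higher and 1 was lower. Besides Hand2, Hand2os1, Tbx2, Tbx3 and Tbx3os1 the higher genes were Hoxd12 and Dlk1. Hoxd12, a posterior HoxD gene, stood at 27.1 CPM in Isl1 cells against 13.99 CPM in non-distal cells of dual-enSERT-1, and 23.5 against 7.01 CPM in those of dual-enSERT-2. Dlk1, which encodes a membrane protein related to Notch ligands, stood at 161 CPM in Isl1 cells against 88.2 CPM in non-distal cells of dual-enSERT-1, and 155 against 32.5 CPM in those of dual-enSERT-2. The lower gene was Hoxd10, at 27.5 CPM in Isl1 cells against 44.7 CPM in non-distal cells of dual-enSERT-1, and 34.6 against 55.8 CPM in those of dual-enSERT-2. The median log2 fold of the list was 1.197 for dual-enSERT-1, with 2.05 for dual-enSERT-2, beside -0.00 and 0.01 over all genes.

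**Figure D2:**
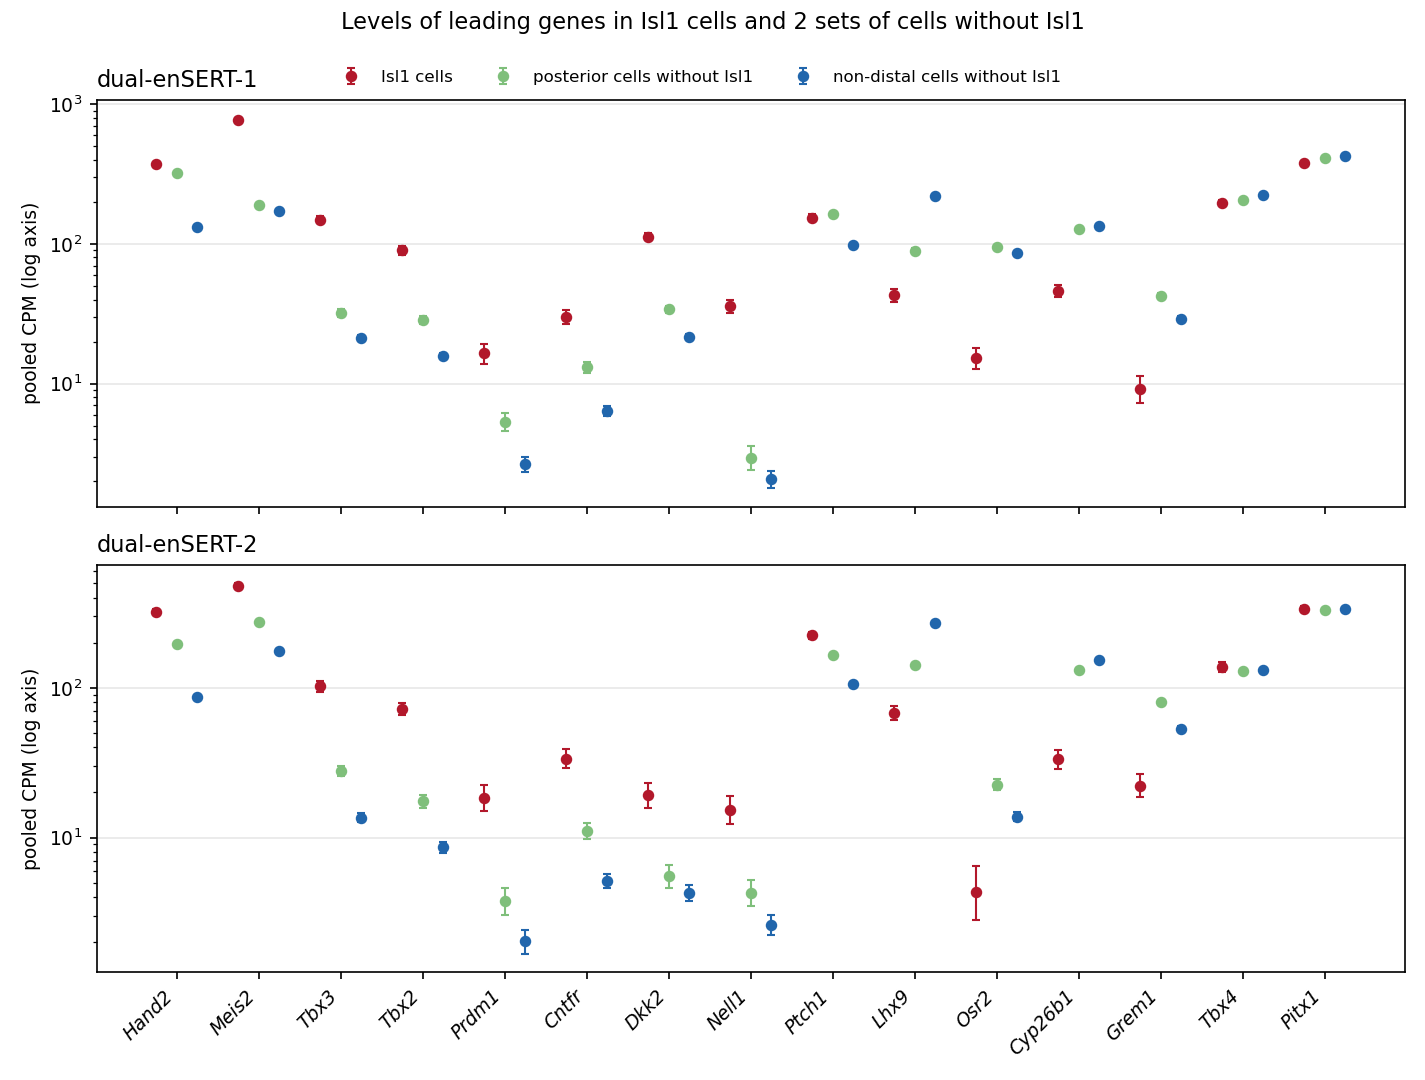
Pooled CPM on a log axis of 15 genes in the Isl1 cells, the posterior cells without Isl1 and the non-distal cells without Isl1, for dual-enSERT-1 above and dual-enSERT-2 below; points are pooled levels and bars exact Poisson 95% intervals. Tbx3 and Tbx2 are highest in the Isl1 cells in both libraries and Lhx9, Osr2 and Cyp26b1 are lowest there, while Tbx4 and Pitx1 lie close together in the 3 cell groups.

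Hand2 alone would mark any posterior cell, so the Isl1 cells were also set beside the posterior cells without Isl1. Against these, 72 of 8741 genes were higher (0.824%) and 54 were lower (0.618%). The leading higher genes were Isl1, Tbx3os1, Tbx3, Dkk2, Nell1 and Tbx2, and the leading lower genes included Osr2, Grem1, Cyp26b1, Enpp2 and Smoc1. Tbx3 stood at 149 CPM in Isl1 cells against 32.1 CPM in posterior cells of dual-enSERT-1, and 102 against 28.0 CPM in those of dual-enSERT-2. Tbx2 stood at 89.9 CPM in Isl1 cells against 28.4 CPM in posterior cells of dual-enSERT-1, and 72.1 against 17.4 CPM in those of dual-enSERT-2. Of the posterior list only Tbx2, Tbx3 and Tbx3os1 were past the fold in both libraries in this comparison. Hand2, the gene that chose the posterior cells, had log2 folds of 0.21 and 0.72. Dlk1 had log2 folds of -0.03 and 1.26, and Hoxd12 of -0.09 and 0.64, so these 2 were past the fold in dual-enSERT-2 alone. The limit of 2 Hand2 UMIs stands for a lower level in that deeper library. The choice of posterior cells thus differs between the libraries, and its part in such differences was not tested.

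The comparison with all mesenchyme cells without Isl1 adds the distal cells that the rule kept out of the Isl1 cells. There 140 of 8821 genes were higher (1.59%) and 125 were lower (1.42%). The leading higher genes were Isl1, Tbx3os1, Tbx3, Cntfr, Nell1 and Prdm1, and the leading lower genes included Hoxa13, E130114P18Rik, Pcdh15, Tspan18 and Gm2694. Hoxa13, which the rule used, stood at 5.13 CPM in Isl1 cells against 83.8 CPM in all mesenchyme cells without Isl1 of dual-enSERT-1, and 2.95 against 24.2 CPM in those of dual-enSERT-2. Pcdh15, a protocadherin gene that the rule did not use, stood at 12.3 CPM in Isl1 cells against 151 CPM in all mesenchyme cells without Isl1 of dual-enSERT-1, and 14.8 against 82.6 CPM in those of dual-enSERT-2.

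Of 7 hedgehog target genes that reached 10 CPM, 4 were higher than in the non-distal cells as a whole. Ptch1, the Shh receptor and itself a target of the pathway, stood at 154 CPM in Isl1 cells against 98.3 CPM in non-distal cells of dual-enSERT-1, and 224 against 106 CPM in those of dual-enSERT-2. Gli1, a transcription factor induced by the pathway, stood at 23.2 CPM in Isl1 cells against 12.5 CPM in non-distal cells of dual-enSERT-1, and 27.5 against 16.4 CPM in those of dual-enSERT-2. With Prdm1 and Cntfr these were the 4 higher genes, none was lower, and the median log2 fold was 0.65 and 0.71. Hhip, a hedgehog-binding inhibitor, did not pass, with log2 folds of 0.42 and 0.50. Against all mesenchyme cells without Isl1, Hhip, Prdm1 and Cntfr were higher, whereas Ptch1, at 0.19 and 0.84, and Gli1, at 0.47 and 0.53, did not pass in both libraries.

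Against the posterior cells without Isl1, the target genes divided. Ptch1 stood at 154 CPM in Isl1 cells against 164 CPM in posterior cells of dual-enSERT-1, and 224 against 166 CPM in those of dual-enSERT-2, which gave ratios of 0.941 (0.887 to 0.998) and 1.35 (1.26 to 1.43). Gli1 stood at 23.2 CPM in Isl1 cells against 21.4 CPM in posterior cells of dual-enSERT-1, and 27.5 against 28.2 CPM in those of dual-enSERT-2, which gave ratios of 1.08 (0.922 to 1.26) and 0.974 (0.814 to 1.16). Neither passed the fold, whereas the other 2 target genes did in both libraries. Prdm1, a zinc-finger repressor, stood at 16.5 CPM in Isl1 cells against 5.31 CPM in posterior cells of dual-enSERT-1, and 18.4 against 3.77 CPM in those of dual-enSERT-2. Cntfr, the receptor of ciliary neurotrophic factor, stood at 30.1 CPM in Isl1 cells against 13.1 CPM in posterior cells of dual-enSERT-1, and 33.7 against 11.1 CPM in those of dual-enSERT-2. Prdm1 was also seen in 34.0% of the thinned endothelial cells of dual-enSERT-1, so it is not a gene of the Isl1 cells alone.

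On the receiving side of the pathway, 3 of the 8 genes of the receptor and Gli list that reached 10 CPM were lower than in the non-distal cells without Isl1 and none was higher, with a median log2 fold of -0.45 and -0.63. Gas1, a Shh co-receptor, stood at 88.5 CPM in Isl1 cells against 189 CPM in non-distal cells of dual-enSERT-1, and 33.2 against 113 CPM in those of dual-enSERT-2. Cdon, another co-receptor, stood at 52.4 CPM in Isl1 cells against 88.7 CPM in non-distal cells of dual-enSERT-1, and 34.6 against 65.9 CPM in those of dual-enSERT-2. Gli3, the main repressor of the pathway in the limb, stood at 148 CPM in Isl1 cells against 259 CPM in non-distal cells of dual-enSERT-1, and 188 against 392 CPM in those of dual-enSERT-2. Smo, the signal transducer, was near the level of the other cells, at 126 CPM in Isl1 cells against 112 CPM in non-distal cells of dual-enSERT-1, and 147 against 139 CPM in those of dual-enSERT-2. Against the posterior cells without Isl1, none of the 8 passed the fold in both libraries.

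The reporters and Shh differed between the libraries. eGFP, driven by ZRS404G>A, stood at 65.8 CPM (60.6 to 71.3) in the Isl1 cells of dual-enSERT-1, against 59.7 CPM in the posterior and 57.9 CPM in the non-distal cells without Isl1. In dual-enSERT-2 it stood at 37.2 CPM (32.4 to 42.5), against 15.7 and 12.6 CPM. mCherry, driven by the ZRS, stood at 12.7 CPM (10.5 to 15.3) against 17.2 and 12.7 CPM in dual-enSERT-1, and at 34.4 CPM (29.8 to 39.5) against 11.1 and 8.97 CPM in dual-enSERT-2. Both reporters were thus past the fold in dual-enSERT-2 only, with log2 folds over the non-distal cells of 0.18 and 1.49 for eGFP and of 0.00 and 1.83 for mCherry. When cells were chosen on thinned counts, however, with at least 1 Isl1 UMI and no Hoxa13 or Hoxd13 UMI, mCherry reached 0.73 in dual-enSERT-1. That is past the fold there as well. Depth and limits both changed in that setting, and their parts were not tested.

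Shh (GRCm39 chromosome 5, 28661813 to 28672254, minus strand) was almost absent from the Isl1 cells of dual-enSERT-1, with 9 UMIs in 551 cells (1.003 CPM, 0.459 to 1.90), against 1.60 CPM in the posterior and 0.749 CPM in the non-distal cells without Isl1. In dual-enSERT-2 the 190 Isl1 cells held 55 Shh UMIs (9.56 CPM, 7.199 to 12.4), against 3.02 and 1.61 CPM. Against all mesenchyme cells without Isl1, which include distal cells, eGFP, mCherry and Shh had log2 folds of -1.10, -1.75 and -1.70 in dual-enSERT-1 and of 0.98, 1.16 and 1.22 in dual-enSERT-2. The Isl1 cells were thus below all mesenchyme cells without Isl1 in the first library but above them in the second. The comparison cells differed in make-up, with 6667 of 10659 non-distal in dual-enSERT-1 and 2522 of 3097 in dual-enSERT-2. The part of this in the difference between the libraries was not tested.

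Counted as cells, eGFP was seen in 30.1% of the thinned Isl1 cells of dual-enSERT-1 (25.9% to 34.5%), 30.9% of the posterior and 28.9% of the non-distal cells without Isl1. In endothelial cells of that library, which are not limb mesenchyme, it was seen in 20.2% (12.6% to 29.8%). In dual-enSERT-2 the eGFP shares were 23.0% (17.2% to 29.7%), 11.7% and 9.23%, beside 9.09% (1.92% to 24.3%) in endothelial cells. The intervals of Isl1 and endothelial cells overlapped in both libraries, so background from free RNA was not separated from eGFP in these shares. mCherry was seen in 10.0% and 16.6% of the Isl1 cells, beside 4.26% (1.17% to 10.5%) and 9.09% (1.92% to 24.3%) of the endothelial cells. These endothelial intervals, from 94 and 33 cells, covered the shares of the Isl1 cells, so background was not separated from mCherry in these shares either. Pooled over endothelial cells, eGFP stood at 26.2 CPM in dual-enSERT-1 and 10.1 CPM in dual-enSERT-2, and mCherry at 6.47 and 8.09 CPM. These pooled levels lay below those given above for the Isl1 cells, and the part of free RNA was not tested.

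Of 7 proximal genes that reached 10 CPM, Meis1 and Meis2 were higher than in both the non-distal and the posterior cells and 5 did not pass. Meis2 had a median of 7 UMIs per Isl1 cell in dual-enSERT-1 (0 to 110) and of 9 in dual-enSERT-2 (0 to 75). Pooled, Meis2 stood at 775 CPM in Isl1 cells against 191 CPM in posterior cells of dual-enSERT-1, and 479 against 274 CPM in those of dual-enSERT-2. Meis1 stood at 242 CPM in Isl1 cells against 78.8 CPM in non-distal cells of dual-enSERT-1, and 125 against 57.2 CPM in those of dual-enSERT-2. The median log2 fold of the list was 0.48 and 0.36 against the non-distal cells and 0.57 and 0.19 against the posterior cells. Hand2 and Meis2 were seen together in 75.2% and 79.1% of the thinned Isl1 cells, against 17.1% and 25.9% of the non-distal cells without Isl1; the share in the posterior cells, chosen by Hand2, was 34.6% and 56.3%.

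Of 6 genes of the distal list that reached 10 CPM, 4 were lower than in the non-distal cells and 2 did not pass. The rule used none of these 4. Lhx9, a LIM-homeodomain gene of the distal mesenchyme, stood at 42.9 CPM in Isl1 cells against 219 CPM in non-distal cells of dual-enSERT-1, and 67.9 against 272 CPM in those of dual-enSERT-2. Its log2 folds over the posterior cells were -1.04 and -1.05. Grem1, a BMP antagonist that links Shh to the apical ridge, stood at 9.14 CPM in Isl1 cells against 29.3 CPM in non-distal cells of dual-enSERT-1, and 22.2 against 53.3 CPM in those of dual-enSERT-2. Msx1, a homeobox gene of the distal and marginal limb, stood at 87.2 CPM in Isl1 cells against 145 CPM in non-distal cells of dual-enSERT-1, and 105 against 183 CPM in those of dual-enSERT-2. The fourth was Sall3, and the median log2 fold of the 6 was -1.15 and -1.01. Lhx9, Sall3 and Grem1 were also lower than in the posterior cells, Msx2 was higher there and 2 did not pass. In the list of LIM-homeodomain factors and partners, leaving out Isl1, 10 genes reached 10 CPM, of which Ssbp2 was higher and Lhx9 lower.

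All 3 genes of the anterior list that reached 10 CPM were lower, among them Asb4 and Gli3, the second given above, and their median log2 fold was -0.80 and -1.06. Asb4 stood at 122 CPM in Isl1 cells against 307 CPM in non-distal cells of dual-enSERT-1, and 151 against 630.4 CPM in those of dual-enSERT-2. Against the posterior cells without Isl1, 2 genes of the anterior list reached 10 CPM and neither passed the fold in both libraries.

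Of 5 hindlimb identity genes that reached 10 CPM, 4 did not pass the fold and Hoxc11 was higher, with a median log2 fold of -0.16 and -0.01. Tbx4, a T-box factor of the hindlimb, stood at 198 CPM in Isl1 cells against 224 CPM in non-distal cells of dual-enSERT-1, and 138 against 131 CPM in those of dual-enSERT-2. Pitx1, the homeobox factor upstream of it, stood at 377 CPM in Isl1 cells against 422 CPM in non-distal cells of dual-enSERT-1, and 334 against 336 CPM in those of dual-enSERT-2. Hoxc11 stood at 148 CPM in Isl1 cells against 57.3 CPM in non-distal cells of dual-enSERT-1, and 82.0 against 51.5 CPM in those of dual-enSERT-2. It was the 1 higher gene among 10 Hox genes of paralog groups 9 to 11, Hoxd9 and Hoxd10 were lower, and 7 did not pass, with a median log2 fold of -0.18 and -0.17. Hoxd9 stood at 21.6 CPM in Isl1 cells against 56.9 CPM in non-distal cells of dual-enSERT-1, and 20.3 against 67.9 CPM in those of dual-enSERT-2. Of paralog groups 3 to 8, 7 genes reached 10 CPM and Hoxd8 was the 1 lower gene, with a median of -0.04 and -0.24.

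In the retinoic acid list, 1 of 8 genes was higher and 2 were lower, with a median log2 fold of -0.33 and -0.22. Rarb, a retinoic acid receptor that is itself induced by the ligand, stood at 45.9 CPM in Isl1 cells against 15.1 CPM in non-distal cells of dual-enSERT-1, and 26.4 against 7.38 CPM in those of dual-enSERT-2. Cyp26b1, the enzyme that degrades retinoic acid in the distal limb, stood at 46.1 CPM in Isl1 cells against 134 CPM in non-distal cells of dual-enSERT-1, and 33.4 against 152 CPM in those of dual-enSERT-2. Crabp1, a retinoic acid binding protein, stood at 124 CPM in Isl1 cells against 295 CPM in non-distal cells of dual-enSERT-1, and 269 against 664 CPM in those of dual-enSERT-2. Rarb and Cyp26b1 were past the fold against the posterior cells too.

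Among 14 genes of the Wnt list that reached 10 CPM, 3 were higher in both comparisons and none was lower. Dkk2, a secreted Wnt modulator, stood at 113 CPM in Isl1 cells against 21.6 CPM in non-distal cells of dual-enSERT-1, and 19.3 against 4.29 CPM in those of dual-enSERT-2. Endothelial cells held Dkk2 as well, at 61.7 and 45.5 CPM and in 21.3% and 18.2% of them after thinning, and in dual-enSERT-2 that level lay above the one of the Isl1 cells. Dkk1, a Wnt antagonist, stood at 22.6 CPM in Isl1 cells against 6.61 CPM in non-distal cells of dual-enSERT-1, and 74.5 against 13.3 CPM in those of dual-enSERT-2. Rspo2, a secreted Wnt enhancer, stood at 27.2 CPM in Isl1 cells against 10.8 CPM in non-distal cells of dual-enSERT-1, and 16.7 against 8.25 CPM in those of dual-enSERT-2. The median log2 fold of the list was 0.01 and 0.22.

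More BMP genes were past the fold against posterior than against non-distal cells. Against the posterior cells without Isl1, 6 of 11 genes were higher, Bmp4, Id1, Id2, Id3, Msx2 and Bambi, and 1, Grem1, was lower. Bmp4, a ligand, stood at 103 CPM in Isl1 cells against 62.9 CPM in posterior cells of dual-enSERT-1, and 145 against 54.7 CPM in those of dual-enSERT-2. Id1, an early target of BMP signals, stood at 370.2 CPM in Isl1 cells against 232 CPM in posterior cells of dual-enSERT-1, and 341 against 174 CPM in those of dual-enSERT-2. The median log2 fold was 0.59 and 0.88, against -0.00 and 0.01 over all genes. Against the non-distal cells 2 were higher, Bmp4 and Id2, and 2 were lower, Grem1 and Msx1, with a median of 0.43 and 0.32.

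Of 11 genes of the FGF list that reached 10 CPM, the feedback inhibitors Spry1, Spry2 and Dusp6 were lower and 8 did not pass. Spry1 stood at 6.58 CPM in Isl1 cells against 18.02 CPM in non-distal cells of dual-enSERT-1, and 10.3 against 31.1 CPM in those of dual-enSERT-2. Spry2 stood at 9.58 CPM in Isl1 cells against 24.5 CPM in non-distal cells of dual-enSERT-1, and 7.82 against 19.0 CPM in those of dual-enSERT-2. Dusp6 stood at 25.5 CPM in Isl1 cells against 73.5 CPM in non-distal cells of dual-enSERT-1, and 67.4 against 151 CPM in those of dual-enSERT-2. These 3 genes, which are induced by FGF signals, were also the 3 lower genes against the posterior cells, and none was higher. Spry4, a further feedback inhibitor, was called lower only against all mesenchyme cells without Isl1. The median of the FGF list was -0.17 and -0.28 against the non-distal cells.

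Of 6 connective tissue genes that reached 10 CPM, 2 were higher and 1 was lower, with a median log2 fold of -0.51 and -0.10. Osr1, a zinc-finger factor of irregular connective tissue, stood at 89.0 CPM in Isl1 cells against 36.8 CPM in non-distal cells of dual-enSERT-1, and 13.2 against 4.004 CPM in those of dual-enSERT-2. Its relative Osr2 stood at 15.2 CPM in Isl1 cells against 86.5 CPM in non-distal cells of dual-enSERT-1, and 4.34 against 13.8 CPM in those of dual-enSERT-2. Osr1 was thus higher and Osr2 lower, also against the posterior cells. Sox9, the cartilage master factor, was the 1 lower gene of 6 in the cartilage list (median -0.97 and 0.13), at 133 CPM in Isl1 cells against 334 CPM in non-distal cells of dual-enSERT-1, and 72.5 against 114 CPM in those of dual-enSERT-2. Unc5c, a netrin receptor, was the 1 higher gene of 19 in the list for axon guidance and cell sorting (median 0.05 and 0.13), at 582 CPM in Isl1 cells against 293 CPM in non-distal cells of dual-enSERT-1, and 359 against 133 CPM in those of dual-enSERT-2. Sema3a, a repulsive guidance cue, and Epha4, an ephrin receptor gene, were lower. Sema3a stood at 128 CPM in Isl1 cells against 227 CPM in non-distal cells of dual-enSERT-1, and 59.2 against 124 CPM in those of dual-enSERT-2. Epha4 stood at 113 CPM in Isl1 cells against 205 CPM in non-distal cells of dual-enSERT-1, and 47.3 against 203 CPM in those of dual-enSERT-2. Among 5 delta protocadherins, Pcdh9 was higher and Pcdh19 lower, with a median of 0.36 and 0.31. Pcdh9 stood at 274 CPM in Isl1 cells against 116 CPM in non-distal cells of dual-enSERT-1, and 33.2 against 13.2 CPM in those of dual-enSERT-2.

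Other leading genes lie outside these lists. Nell1, which encodes a secreted protein, stood at 35.8 CPM in Isl1 cells against 2.07 CPM in non-distal cells of dual-enSERT-1, and 15.3 against 2.62 CPM in those of dual-enSERT-2. Kcnq5, a potassium channel gene, stood at 108 CPM in Isl1 cells against 19.1 CPM in non-distal cells of dual-enSERT-1, and 38.9 against 10.9 CPM in those of dual-enSERT-2. Prr16 stood at 101 CPM in Isl1 cells against 25.6 CPM in non-distal cells of dual-enSERT-1, and 16.7 against 3.85 CPM in those of dual-enSERT-2. Hpse2, a heparanase relative, was lower, at 83.0 CPM in Isl1 cells against 342 CPM in non-distal cells of dual-enSERT-1, and 54.4 against 335 CPM in those of dual-enSERT-2. No gene of the S phase, G2 and mitosis, stress or calmodulin lists passed the fold in both libraries; the median log2 fold of the 12 G2 and mitosis genes was 0.36 and 0.25, and that of the 12 S phase genes -0.18 and -0.13.

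Around the threshold of 2 Isl1 UMIs the levels changed in steps. In non-distal cells with 0, 1, 2, 3 to 4 and 5 or more Isl1 UMIs, Tbx3 stood at 21.2, 109.9, 132, 151 and 182 CPM in dual-enSERT-1 and at 13.6, 59.5, 97.4, 101 and 142 CPM in dual-enSERT-2. Hand2 stood at 131, 289, 363, 371 and 384 CPM and at 86.4, 237, 309, 321 and 418 CPM. Meis2 stood at 171, 565, 635, 830.0 and 968 CPM and at 177, 405, 459, 480.3 and 612 CPM. The 576 and 267 cells with 1 Isl1 UMI, just outside the rule, were closer in these 3 genes to the Isl1 cells than to the cells with none. Lhx9 ran the other way, at 219, 83.6, 43.2, 44.4 and 39.7 CPM and at 272, 106, 68.8, 69.7 and 53.4 CPM. Median UMIs per cell also grew along these steps, to 17013 and 30369 in the cells with 5 or more Isl1 UMIs, and the part of depth in the steps was not tested.

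**Figure D3:**
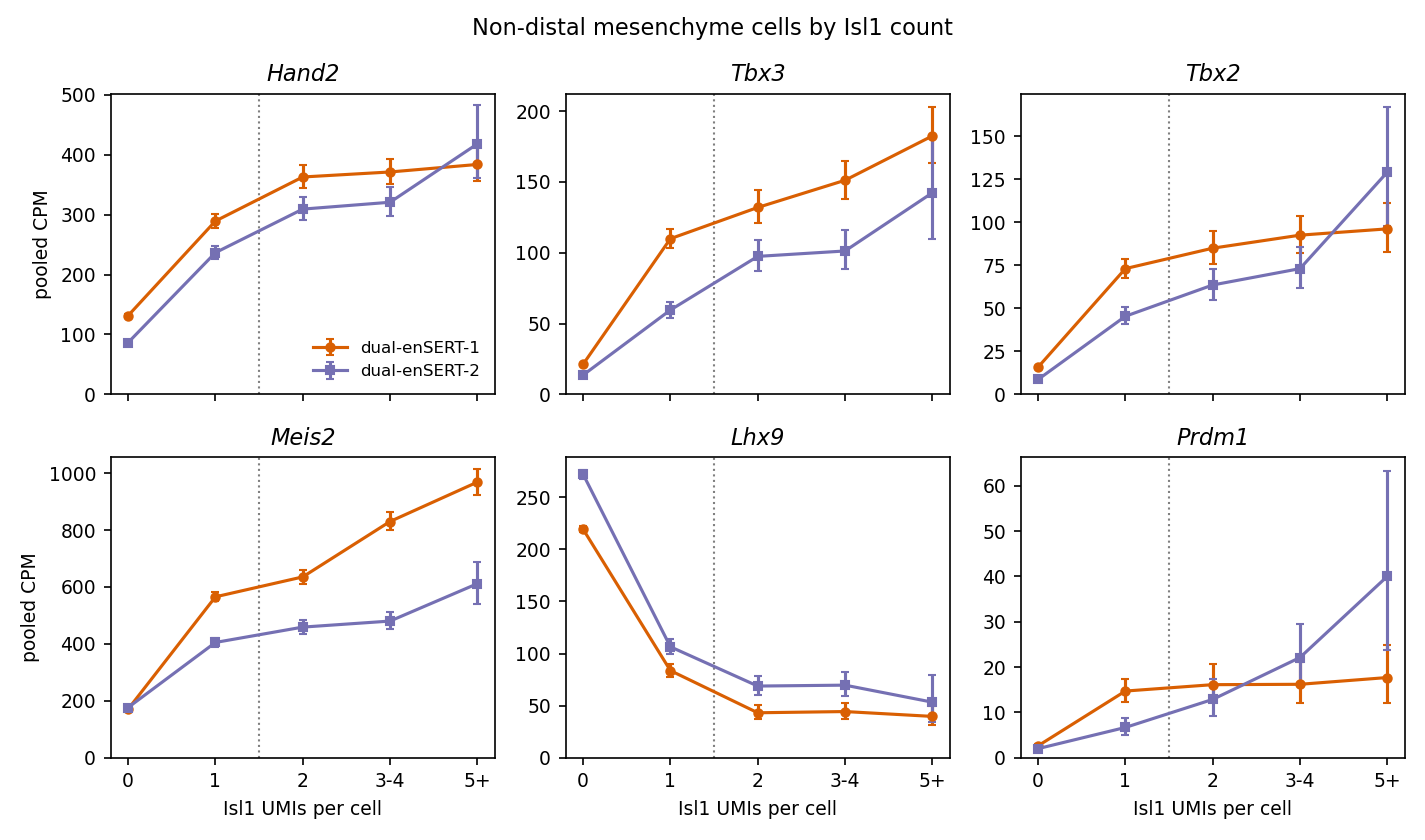
Pooled CPM of 6 genes in non-distal mesenchyme cells with 0, 1, 2, 3 to 4 and 5 or more Isl1 UMIs, for both libraries, with exact Poisson 95% intervals; the dotted line marks the threshold of 2 Isl1 UMIs. Hand2, Tbx3, Tbx2, Meis2 and Prdm1 are lowest and Lhx9 is highest in the cells with no Isl1 UMI in both libraries.

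The limit on Hoxa13 and Hoxd13 cut across a wider set of cells with at least 2 Isl1 UMIs. With 0, 1, 2, 3 to 5 and 6 or more UMIs of the 2 genes, such cells numbered 461, 90, 40, 62 and 106 (dual-enSERT-1), or 130, 60, 28, 30 and 25 (dual-enSERT-2); the first 2 classes are the Isl1 cells. Meis2 stood at 815, 613, 268, 183 and 204 CPM and at 554, 334, 145, 170.4 and 50.5 CPM along these classes. Shh stood at 0.416, 3.42, 37.9, 25.6 and 54.5 CPM and at 4.22, 19.9, 30.7, 31.8 and 116 CPM. Most Shh of cells with Isl1 therefore lay outside the limit, and within the Isl1 cells it lay mainly in those with 1 Hoxa13 or Hoxd13 UMI.

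The reporters followed a like order. eGFP stood at 52.6, 119.8, 339.7, 254 and 316 CPM and at 26.1, 58.6, 50.4, 87.4 and 194 CPM, and mCherry at 8.73, 29.1, 177, 151 and 244 CPM and at 27.2, 48.4, 63.6, 92.7 and 161 CPM. Hand2 stayed between 279 and 391 CPM in dual-enSERT-1 and between 302 and 390.3 CPM in dual-enSERT-2. In cells with no Isl1 UMI and at least 2 Hand2 UMIs, Shh stood at 0.933, 3.77, 6.66, 14.3 and 13.5 CPM and at 1.24, 9.19, 11.95, 9.81 and 13.3 CPM along the same classes, and Tbx3 at 31.7, 33.4, 31.1, 28.6 and 13.4 CPM and at 24.4, 40.5, 39.3, 18.9 and 10.8 CPM. In each class Tbx3 was lower there than in the cells with Isl1. Median UMIs per cell with Isl1 also grew along the classes, to 26184.5 and 38426 in the last, and the part of depth was not tested.

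**Figure D4:**
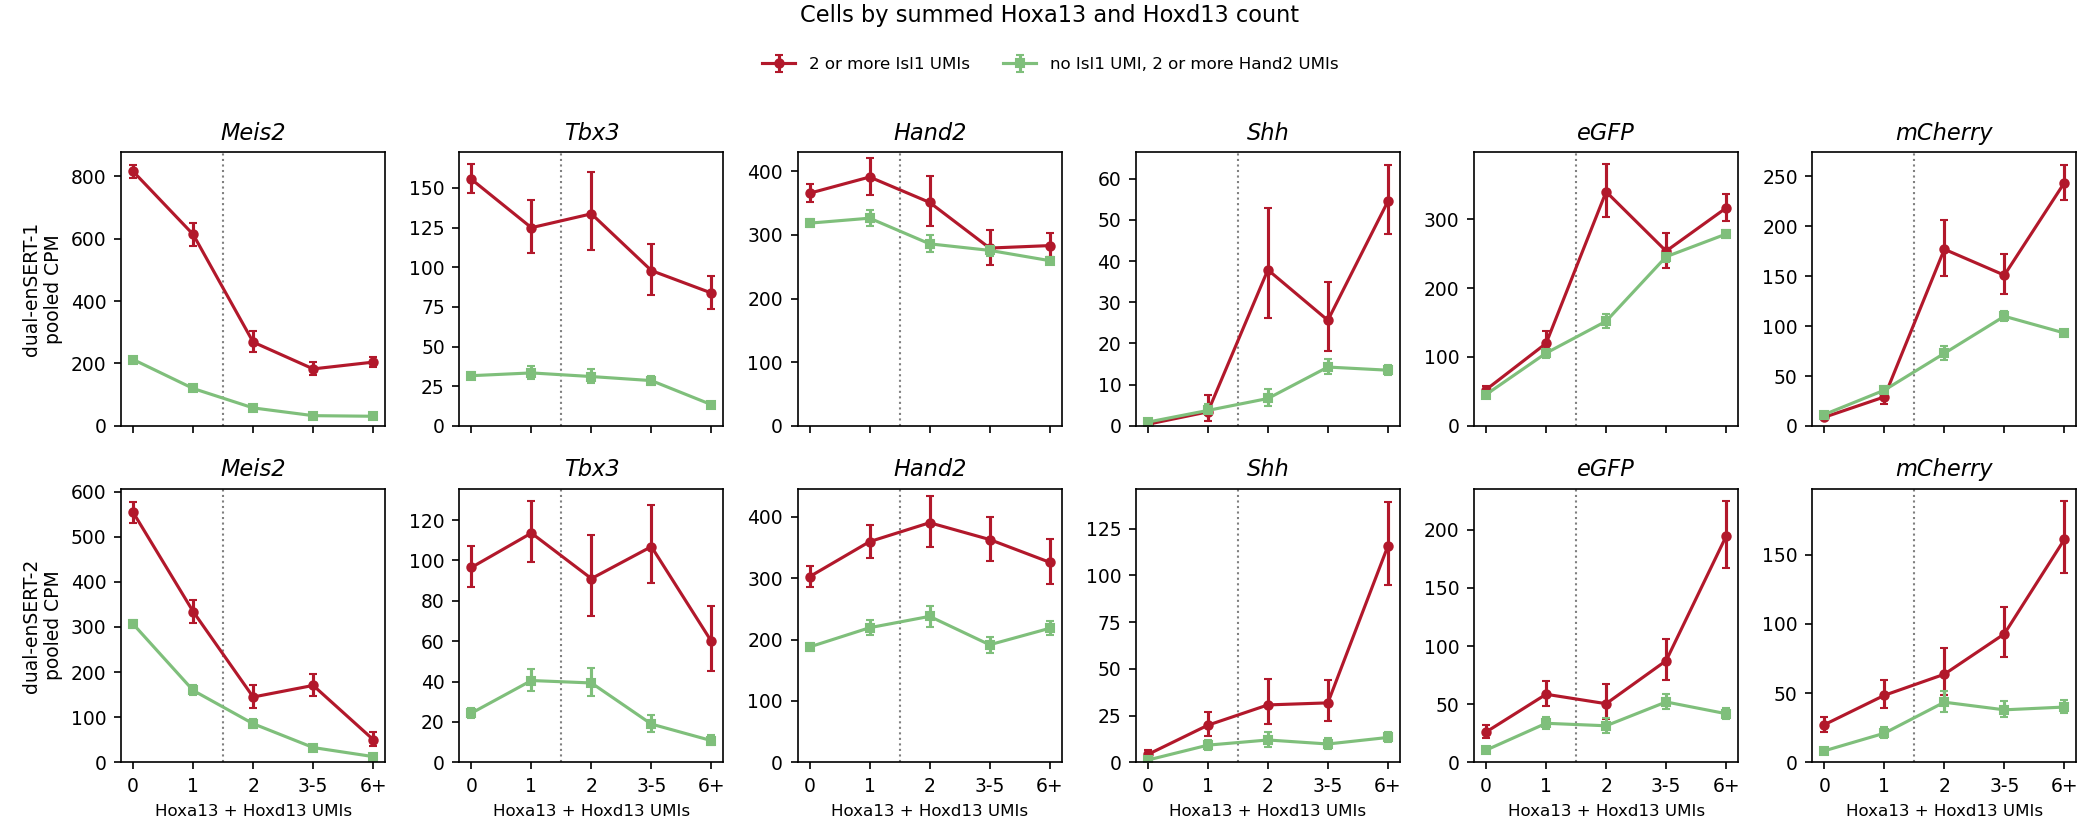
Pooled CPM of 6 genes by the summed UMIs of Hoxa13 and Hoxd13 (0, 1, 2, 3 to 5 and 6 or more) in mesenchyme cells with 2 or more Isl1 UMIs and in those with no Isl1 UMI and 2 or more Hand2 UMIs, dual-enSERT-1 above and dual-enSERT-2 below, with exact Poisson 95% intervals; the dotted line marks the limit of 1 UMI. Meis2 is highest at the left, and Shh, eGFP and mCherry are lowest there in both libraries.

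The Isl1 cells varied among themselves. After thinning, Lmx1b, the LIM-homeodomain gene of dorsal limb mesenchyme, was seen in 43.6% (38.98% to 48.2%) of the Isl1 cells in dual-enSERT-1 and in 23.0% (17.2% to 29.7%) in dual-enSERT-2. Between Isl1 cells with and without it, 56 of 8777 genes were higher (0.638%) and 24 were lower (0.273%). The higher genes included Hdac9, a histone deacetylase gene, at 163 CPM in cells with Lmx1b against 66.4 CPM in cells without it in dual-enSERT-1, and 144 against 59.0 CPM in dual-enSERT-2. Ptch1 was seen in 65.6% and 85.6%. Between Isl1 cells with and without Ptch1, 59 of 8846 genes were higher (0.667%) and 51 were lower (0.577%). The higher genes included Kit, a receptor tyrosine kinase gene, at 23.9 CPM in cells with Ptch1 against 7.59 CPM in cells without it in dual-enSERT-1, and 29.4 against 7.41 CPM in dual-enSERT-2. The level without Ptch1 in dual-enSERT-2 is 2 UMIs in 27 cells. Hand2 was seen in 88.9% and 93.05%, and the split by it gave 238 of 8776 genes higher (2.71%) and 165 lower (1.88%), but it left 51 and 13 cells without Hand2, so single genes rest on few UMIs.

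Clustered within each library without Isl1, Hoxa13, Hoxd13, eGFP, mCherry and Shh, the Isl1 cells formed 6 subclusters for dual-enSERT-1 but 4 for dual-enSERT-2. Subclusters are given by number and leading genes, which are a description since the cells were clustered on them. Subcluster 1 of dual-enSERT-1 (84 cells) had Pax3 and Mybpc1 among its leading genes and held 58 of the 61 called doublets, with a median of 26415.5 UMIs. Without it all 36 of the genes named by rank or as markers that were past the fold over non-distal cells stayed past it. The minimum level was left aside there. Subclusters 2 and 5 of dual-enSERT-1 (161 and 68 cells) had the most Meis2, at 1343 and 1405 CPM, and subcluster 4 (48 cells) had 134 CPM of Meis2, below the 171 CPM of the non-distal cells, and 576 CPM of Hand2.

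In dual-enSERT-2, subcluster 3 (32 cells) held most of the Shh. Shh stood there at 44.1 CPM, against 7.03, 0.355 and 1.72 CPM in the other 3 subclusters. It also had 102 CPM of mCherry, 86.4 CPM of eGFP, 313 CPM of Ptch1 and 144 CPM of Meis2, below the 177 CPM of the non-distal cells. Subcluster 2 (80 cells), the largest, had 623 CPM of Meis2 and was led by Pf4, Il1rapl2 and Nell1. The higher Shh of the Isl1 cells in dual-enSERT-2 thus lay mainly in a group of cells with little Meis2. No subcluster of dual-enSERT-1 exceeded 4.77 CPM of Shh. That level, from 4 UMIs, was found in subcluster 3 of dual-enSERT-1 (74 cells). It had 197 CPM of eGFP, against 52.3 CPM in the other Isl1 cells of that library, and 21.5 CPM of mCherry. In Meis2, subcluster 3 of dual-enSERT-2 and subcluster 4 of dual-enSERT-1 went against the proximal side of the label.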

How the data were processed

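Gene expression was measured in 2 single-cell libraries, 1 per genotype. The deposited values are raw UMI counts, which the authors had not normalized. Versions conflict: Cell Ranger 7.0.1 per the file headers, Cell Ranger 3.1.0 (with Seurat 4 and the mm39 build) per the submitters' processing notes. The matrices held 298653282 and 184301053 UMIs for 56982 features, 56236 of them in GENCODE M39 (GRCm39).

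Counts were read with SciPy 1.17.1 and pandas 2.3.3 under Python 3.11.15. Each gene's UMIs were pooled over a cell group and divided by the group's UMIs (CPM). Shares of cells came from cells thinned to 10000 UMIs with seed 1. Intervals are exact Poisson for levels and Clopper-Pearson for shares and count ratios. UMIs within a library share its preparation, so intervals cover counting error only. Doublets were scored with Scrublet in Scanpy 1.11.5 (expected rate 8%) and kept. Subclusters used 1000 variable genes, 20 principal components, 15 neighbours and Leiden resolution 0.5 (igraph 0.11.9). The pipeline was tested on simulated data.

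Genes named by rank were the first 12 per direction against non-distal cells and the first 6 against the other groups, ordered by the smaller log2 fold of the 2 libraries; other genes come from the 23 gene lists. A few genes within these ranks and lists are not reported here. The members, the 23 gene lists and the 11 marker lists were chosen with earlier results of these data known. The endothelial cells and the subcluster left out were chosen after seeing the data. Alternatives changed the pseudocount, the minimum level, the scaling, the depth, called doublets and the limits on Isl1, on Hoxa13 and Hoxd13 and on detected genes. The other limits of the rule were not varied.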

Additional observations from a re-analysis of the deposited data

Results flagged for a closer look

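Of 12 genes looked at, 6 had opposite signs in the libraries for the Isl1 cells over the posterior cells without Isl1, and for 2 of these, mCherry and Ptch1, the counting intervals of both ratios lay clear of 1. This difference between the libraries was not tested. The log2 fold of mCherry was -0.41 for dual-enSERT-1, against 1.54 for dual-enSERT-2. The ratio of counts was 0.739 (0.599 to 0.904) and 3.09 (2.56 to 3.73), by counting error alone. The log2 fold of Ptch1 was -0.09 for dual-enSERT-1, against 0.43 for dual-enSERT-2, inside the 1.5-fold limit in both. The libraries differ in genotype, embryo and depth, and these cannot be told apart.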

How the results depend on the processing

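Of 220 values recomputed under 17 settings, 161 stayed within counting error or, for counts, within 1.5 times, and 59 moved. Sign changes were counted for the log2 folds of eGFP, mCherry and Shh over non-distal cells only. There were 5, of which 4 were for mCherry and 1 was for Shh. All were for dual-enSERT-1 and from reported folds of at most 0.20, and no difference of these genes past 1.5-fold changed sign. Without a minimum level 223 genes were higher and 252 lower against non-distal cells, 155 and 165 against posterior cells, and 266 and 279 against all mesenchyme cells without Isl1; at a minimum of 50 CPM these were 47 and 30, 27 and 15, and 57 and 36. With at least 1 Isl1 UMI there were 1127 and 457 Isl1 cells (9.10% and 12.2% of mesenchyme cells), 47 genes were higher and 32 lower against posterior cells, and the mCherry log2 fold over non-distal cells was 0.54 and 1.43. With at least 3 UMIs there were 306 and 79 cells (2.47% and 2.11%), and in dual-enSERT-2 the log2 folds of eGFP, mCherry and Shh were 0.76, 1.09 and 1.22. With the rule applied after thinning the share was 6.21% and 6.47%, 38 genes were higher and 29 lower against posterior cells, and the log2 folds were 0.34 and 1.22 for eGFP and 0.73 and 1.26 for mCherry. With Hoxa13 and Hoxd13 at 0 the share was 3.72% and 3.47%, and in dual-enSERT-2 the log2 folds of eGFP and Shh were 1.23 and 1.51. With a pseudocount of 5 CPM the log2 folds of eGFP, mCherry and Shh in dual-enSERT-2 were 1.26, 1.496 and 1.14. In dual-enSERT-1 the eGFP log2 fold was 0.33 with cells thinned before pooling, 0.36 without called doublets and 0.40 without the Pax3-led subcluster, whose removal, chosen after seeing the data, left a share of 3.80%; the mCherry log2 fold was -0.29 with the mean of the CPM of each cell. Without thinning the shares of Isl1 cells with a UMI were 78.6% and 81.1% for Tbx3, 43.7% and 44.2% for eGFP and 14.2% and 34.7% for mCherry; at 2 UMIs they were 43.6% and 22.5%, 7.84% and 6.95%, and 1.74% and 5.88%. The causes were not tested.

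For genes named by rank or as markers, only the folds over non-distal cells were judged here. The minimum level was left aside, so changing it could not alter the result. Of 39 such genes, 36 were past the fold in both libraries. Pcp4 and Tspan18 lost this with a pseudocount of 5 CPM, Pcp4 with thinning, Grem1, Smoc1 and Tspan18 with at least 1 Isl1 UMI, and Tspan18 with the rule applied after thinning and with Hoxa13 and Hoxd13 at 0. No paired analysis was possible because each genotype had 1 library. For the same reason no library could be left out.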
